A study of Mus musculus with 6 samples.

Results

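The 39 genes of the 4 mouse Hox clusters were followed in embryonic stem cells at day 5 of differentiation, sorted by their nuclear redox state. The members are the genes of the deposited table whose symbol is Hoxa, Hoxb, Hoxc or Hoxd with a paralogue number, 39 of 31265 genes. They divide into 11 Hoxa, 10 Hoxb, 9 Hoxc and 9 Hoxd genes. The cells were E14Tg2a mouse embryonic stem cells of WT genotype, and every library came from cells that expressed the redox sensor Grx1-roGFP2 in the nucleus. They were differentiated as hanging-drop embryoid bodies, in medium without LIF and the 2i inhibitors, to day 5. After dissociation and removal of propidium iodide-positive dead cells, the cells at both ends of the sensor ratio, the top 10% by oxidation and the 10% most reduced, were sorted from 3 populations, named A, B and C, and their poly(A) RNA was sequenced. This gave 3 oxidized and 3 reduced libraries, each the RNA of a bulk sort from 1 population of this line. The labels do not tell what separated the populations, so every p-value below rests on the spread between 3 populations of unknown kind.

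Hox genes encode homeodomain transcription factors that give cells their position along the head-to-tail axis. Within a cluster the genes lie in the order in which they are used: genes with low paralogue numbers are switched on early and reach into the hindbrain, and genes with high numbers are switched on late and act in the trunk, tail, limbs and urogenital tract. Retinoic acid, Wnt and FGF signals and the Cdx factors open the clusters, Polycomb proteins keep them silent in pluripotent stem cells, Trithorax proteins keep them active, and the TALE proteins of the Pbx, Meis and Pknox families bind DNA together with Hox proteins. The paralogue numbers are called anterior (1 to 3), central (4 to 8) and posterior (9 to 13) below.

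On the mm10 genome the Hoxa cluster spans chr6:52155590-52260880 on the minus strand, and the Hoxb cluster spans chr11:96194316-96368256 on the plus strand. The Hoxc cluster lies at chr15:102921103-103036852 and the Hoxd cluster at chr2:74668310-74765142, both with their Hox genes on the plus strand. The Hox genes arose by duplication, and genes with the same number in different clusters have closely related homeoboxes, the DNA that codes for the homeodomain. Over 180 bases, homeoboxes of the same paralogue group were identical at a median of 80.6% of positions (42 pairs, range 67.2% to 93.9%), and those of different groups at 60.6% (699 pairs, 46.1% to 88.9%). The homeoboxes of 2 Hoxa and Hoxd pairs described below are shown to let a reader see how far the paralogues can be told apart by sequence. Each is exonic (exon 2 of 2), coding, written from 5′ to 3′ from the GRCm38 genome, and capitals mark the bases that differ from the partner.
Hoxa11 (chr6:52243402-52243581, minus strand): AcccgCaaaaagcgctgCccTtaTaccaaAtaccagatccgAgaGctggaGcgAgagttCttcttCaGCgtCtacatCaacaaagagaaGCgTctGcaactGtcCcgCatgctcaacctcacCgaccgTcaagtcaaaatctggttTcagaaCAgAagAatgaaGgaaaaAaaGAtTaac
Hoxd11 (chr2:74683917-74684096, plus strand): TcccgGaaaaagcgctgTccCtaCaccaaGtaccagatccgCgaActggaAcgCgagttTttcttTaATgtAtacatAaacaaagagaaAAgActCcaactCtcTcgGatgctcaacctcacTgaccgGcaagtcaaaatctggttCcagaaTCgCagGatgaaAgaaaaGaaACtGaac
Hoxa10 (chr6:52232554-52232733, minus strand): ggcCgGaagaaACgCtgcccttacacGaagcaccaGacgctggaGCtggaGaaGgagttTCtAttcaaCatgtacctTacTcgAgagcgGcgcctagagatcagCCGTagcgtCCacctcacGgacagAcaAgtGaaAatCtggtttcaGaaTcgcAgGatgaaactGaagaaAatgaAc
Hoxd10 (chr2:74694141-74694320, plus strand): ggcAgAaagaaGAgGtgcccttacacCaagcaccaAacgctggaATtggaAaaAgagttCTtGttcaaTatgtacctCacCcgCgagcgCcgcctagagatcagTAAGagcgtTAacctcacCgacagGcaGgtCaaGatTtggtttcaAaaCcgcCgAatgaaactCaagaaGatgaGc
Hoxa11 and Hoxd11 differed at 35 of the 180 bases and Hoxa10 and Hoxd10 at 38. In whole transcripts, 17 of the 39 Hox genes shared no stretch of 50 bases with another gene of the table on either strand. The share of such stretches was over 20% in 6 members, Hoxd3 (60.3%), Hoxb3 (51.4%), Hoxd4 (46.8%), Hoxa11 (33.0%), Hoxb2 (25.9%) and Hoxa3 (24.3%), and the values of these genes are uncertain to that extent, since neither strand use nor the treatment of reads that match several genes was given in the sources used here.

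Upstream sequence was at hand for 22 of the 39 members (24 start sites, RefSeq, GRCm38.p6). The 250 bases before the start held a median of 12.5 CG dinucleotides, against 6 over the 32851 start sites of all genes in that table, and a median GC content of 58.6% against 52.4%. The windows before Hoxa11 and Hoxa13, 2 of the posterior genes described below, are shown because they lie at different densities of CG, which capitals mark.
Hoxa11 (chr6:52245811-52246060, minus strand): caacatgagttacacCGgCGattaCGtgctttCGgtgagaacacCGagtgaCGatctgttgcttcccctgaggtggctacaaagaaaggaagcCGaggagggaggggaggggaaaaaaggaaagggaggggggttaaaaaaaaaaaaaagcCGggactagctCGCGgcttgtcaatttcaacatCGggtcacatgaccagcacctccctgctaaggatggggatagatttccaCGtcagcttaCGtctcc
Hoxa13 (chr6:52260881-52261130, minus strand): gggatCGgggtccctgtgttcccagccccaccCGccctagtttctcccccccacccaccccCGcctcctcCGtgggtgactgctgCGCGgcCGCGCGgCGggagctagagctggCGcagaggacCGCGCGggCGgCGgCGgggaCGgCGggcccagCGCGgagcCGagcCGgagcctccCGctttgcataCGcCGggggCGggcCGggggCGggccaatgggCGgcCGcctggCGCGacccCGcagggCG
Hoxa11 had 13 CG and Hoxa13 had 35. The motif AGGTCA, the half-site of retinoic acid receptors, was found on either strand in 25.0% of the Hox windows and 14% of all windows, and TTTATG, the core bound by Cdx proteins, in 20.8% and 10.8%. These are matches of letters in 24 windows, with overlaps between motifs not removed.

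The 6 libraries had an estimated depth of 1.19e+07 to 1.8e+07 fragments, with both libraries of population C the shallowest, and 11911 to 12404 genes reached 1 FPKM (fragments per kilobase of transcript, scaled to library size) in each. The oxidized libraries A and B stood apart from the other 4, with a mt-Co3 level of 2710 and 1525 FPKM against 112 to 199 FPKM. Pluripotency markers were present in every library (6 of 6 genes, summed 335 to 671 FPKM in oxidized and 621 to 802 FPKM in reduced cells). The summed levels of several germ layer lists did not overlap between the redox groups: 8 neuroectoderm and hindbrain genes summed to 18.5 to 32.9 FPKM in oxidized and 6.20 to 8.98 FPKM in reduced libraries, with Pax6, Zic1 and Egr2 under 1 FPKM in all 6. The 6 mesoderm genes summed to 178 to 228 against 103 to 157 FPKM, a sum carried by Hand1 (127 to 188 against 62.9 to 97.6 FPKM), while Mesp1 and Tcf15 were lower in every oxidized library than in any reduced one and 1 of the 4 tested genes had a positive difference (median log2 difference -0.30). The 6 fibroblast genes summed to 54.9 to 69.1 against 19.2 to 32.0 FPKM with Thy1 under 1 FPKM, and the 6 endoderm genes to 14.6 to 17.8 against 4.24 to 7.84 FPKM with Afp under 1 FPKM and listed at 0 in reduced C. The 5 primitive streak genes summed to 38.9 to 53.9 against 74.0 to 88.7 FPKM. Fgf8 carried that sum (28.1 to 34.6 against 46.5 to 59.3 FPKM) and T was also lower without overlap. Mixl1, Eomes and Gsc overlapped, with the higher oxidized mean for Gsc. The 6 blood and endothelium genes summed to 345 and 327 FPKM in oxidized and reduced C and 22.3 to 43.6 FPKM in the other libraries. Hba-x carried that sum (314 and 290 FPKM in oxidized and reduced C), and Hbb-y, Gata1 and Cdh5 were also highest in C. Pecam1 was lower in every oxidized library than in any reduced one, and Kdr overlapped. The part of these cell types in the Hox values was not tested.

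Hox transcripts were present at low levels, and the posterior genes of the Hoxa and Hoxd clusters had the highest. Summed over the 39 genes, the Hox level was 71.2, 64.5 and 66.6 FPKM in the oxidized libraries of A, B and C and 33.0, 33.1 and 52.7 FPKM in the reduced libraries of A, B and C. The group means were 67.4 ± 3.39 and 39.6 ± 11.3 FPKM (SD, n = 3 each). Each oxidized library lay above each reduced one, and reduced C lay well above reduced A and B. In these bulk libraries, fewer cells with Hox transcripts and less Hox RNA in each cell cannot be told apart. The ratio of oxidized to reduced was 2.16 in population A, 1.95 in B and 1.26 in C. By mean over the 6 libraries, 3 members reached 5 FPKM: Hoxa10 (5.59), Hoxd9 (5.35) and Hoxa11 (5.07). A further group lay between Hoxd1 at 4.63 FPKM and Hoxc10 at 1.09 FPKM, so that 17 members averaged 1 FPKM or more and were tested. The other 22 members had a mean under 1 FPKM, from Hoxb9 at 0.909 FPKM down to Hoxa6 at 0.0349 FPKM. Of those, 18 were under 0.5 FPKM and 4 under 0.1 FPKM. In all, 35 of the 39 members had a value above 0 in every library, and Hoxa6, Hoxb3, Hoxb13 and Hoxc5 were each listed at 0 in at least 1. Among neighbours in the order of mean level, Hoxa10, Hoxd9, Hoxa11 and Hoxd1 did not differ beyond the spread of their libraries.

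**Figure D1:**
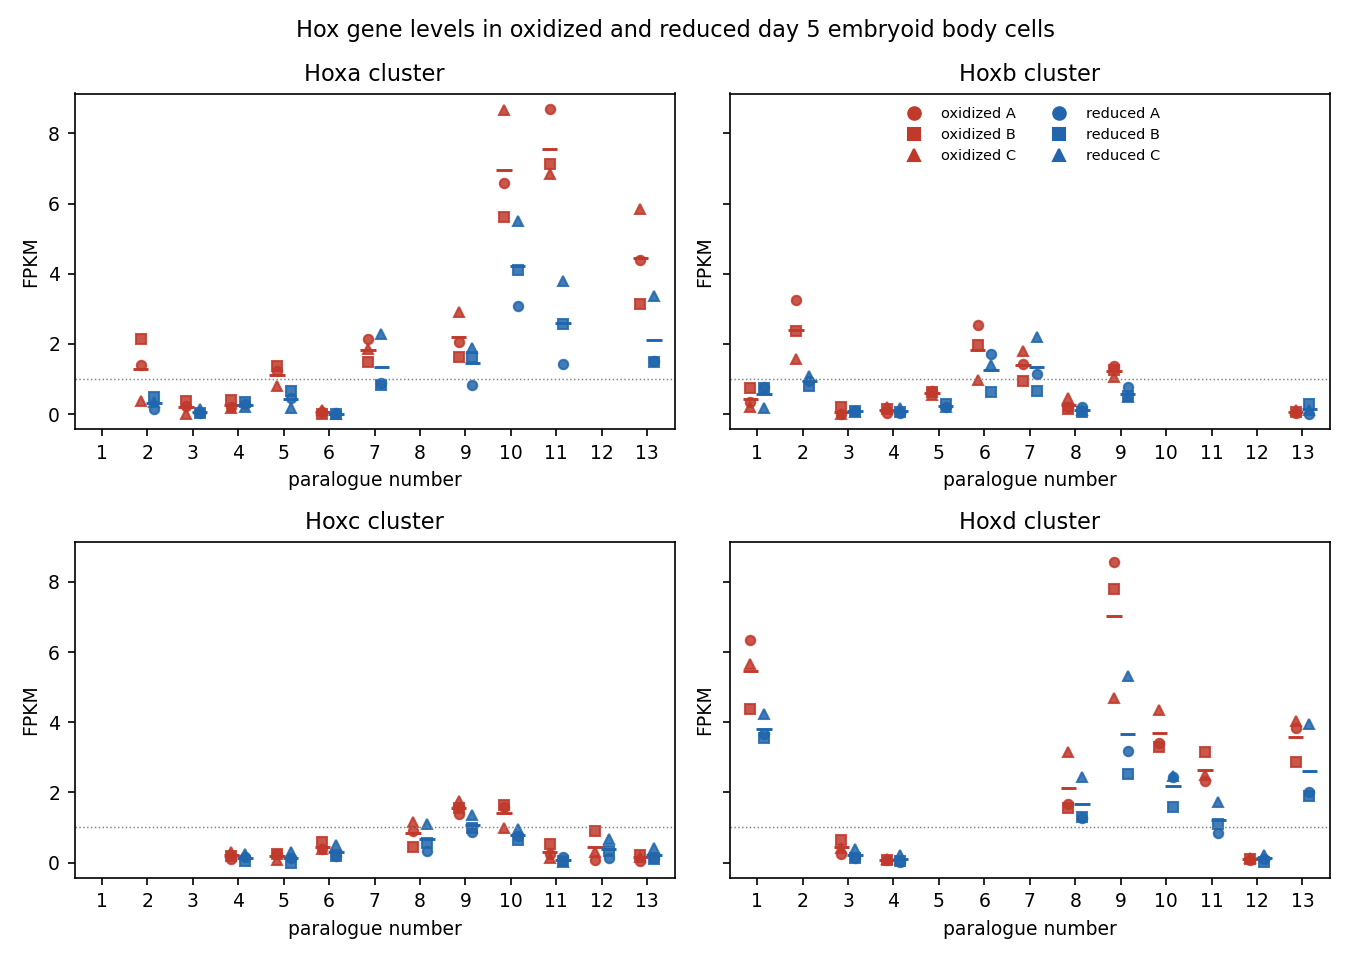
FPKM of the Hox genes described here by paralogue number in each cluster. Red marks oxidized and blue reduced libraries, circles, squares and triangles are populations A, B and C, short bars are group means, and the dotted line is the 1 FPKM limit for testing. The highest values are those of Hoxa11, Hoxa10 and Hoxd9, up to 8.70 FPKM, and the Hoxc genes stay under 2 FPKM.

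Oxidized cells had the higher mean of all 17 tested Hox genes, but none of the 17 passed the test over all genes. In limma on log2(FPKM + 1), 0 of the 17 had an adjusted p under 0.05, beside 97 of 12191 genes (0.796%), 63 of them higher in oxidized cells (0.517%) and 34 lower. The split over all genes depended on the scaling, with 58 higher and 50 lower after median-ratio scaling and 54 and 51 after quantile normalization. With the population as a block, which pairs the oxidized and reduced library of a population, 4 genes were called and again 0 Hox genes. At an unadjusted p under 0.05 limma gave 9 of the 17 Hox genes, all higher in oxidized cells, beside 13.5% of all tested genes in that direction. The authors' deposited table marks 2 of the 39 as significant, Hoxa11 (q = 0.00295) and Hoxb2 (q = 0.0197), both higher in oxidized cells. Over all its genes the table marks 1.94% in either direction and 1.23% as higher in oxidized cells. Its mark requires a q under 0.05 and a change of at least 2-fold, and the table does not name the test behind its q. The median log2 difference (oxidized minus reduced) of the 17 genes was 0.41, with a range of 0.07 to 1.30, where the median of all tested genes was 0.08. A positive difference was seen for 59.3% of all tested genes. Without the oxidized libraries A and B, which leaves 1 oxidized library assumed to vary like the others, 15 of the 17 differences were positive and the median was 0.47 (range -0.15 to 1.19). The groups did not overlap in 8 of the 17, with oxidized higher in each (16.2% of all tested genes), and none had the reverse (8.81%). Of the 17, Hoxb2 and Hoxc10 passed the 1 FPKM limit only through their oxidized libraries, with reduced means of 0.943 and 0.778 FPKM, so their direction is partly set by that limit.

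Among the posterior genes, Hoxa11, a regulator of the middle limb segment and the uterus, had the widest gap. It was at 8.70, 7.11 and 6.85 FPKM in the oxidized libraries of A, B and C and at 1.43, 2.56 and 3.79 FPKM in the reduced libraries of A, B and C. The lowest oxidized library was above the highest reduced one, and within each population oxidized was higher, by 6.09-fold in A, 2.78-fold in B and 1.80-fold in C. Its log2 difference was 1.30 (SE 0.25, n = 3 each, limma adjusted p = 0.0599), and 0.105 was the adjusted p with the population block. Without oxidized C the adjusted p of Hoxa11 was 0.0162 and without reduced C it was 0.0385, in a range of 0.0162 to 0.243 over all alternatives. Without oxidized A and B its difference was 1.18. The estimated fragments behind these values were 304, 240 and 179 in oxidized and 57, 96 and 105 in reduced libraries. Hoxd11, its partner in forearm formation, was at 2.31, 3.14 and 2.49 FPKM in oxidized and 0.843, 1.11 and 1.72 FPKM in the reduced libraries of A, B and C. Here too the groups did not overlap (log2 difference 0.72, SE 0.20, limma adjusted p = 0.120), and the authors' deposited table gives q = 0.0591. The third member of paralogue group 11, Hoxc11, was at most 0.524 FPKM in any library.

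Group 10 genes specify the ribless lumbar region and were measured from 3 clusters. Hoxa10 was at 6.58, 5.63 and 8.66 FPKM in the oxidized libraries of A, B and C and 3.08, 4.12 and 5.49 FPKM in the reduced libraries of A, B and C. Its groups were close but did not overlap, and in both groups C was the highest (log2 difference 0.61, SE 0.22, limma adjusted p = 0.189). Hoxd10 was at 3.40, 3.30 and 4.35 FPKM against 2.44, 1.59 and 2.48 FPKM, with no overlap (log2 difference 0.57, SE 0.19, limma adjusted p = 0.160). For Hoxc10 the values were 1.59, 1.65 and 0.982 FPKM against 0.752, 0.629 and 0.952 FPKM. Oxidized C exceeded reduced C by little for this gene, whose difference was 0.43 (SE 0.18, limma adjusted p = 0.248).

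Paralogue group 9 marks the thoracic to lumbar trunk. Hoxd9 was at 8.58 and 7.79 FPKM in the oxidized cells of A and B but 4.68 FPKM in oxidized C, against 3.19, 2.51 and 5.32 FPKM in the reduced libraries of A, B and C. Population C thus went the other way, with oxidized below reduced, and the groups overlapped (log2 difference 0.79, SE 0.27, limma adjusted p = 0.176). Without oxidized C the difference of Hoxd9 was 1.02 (limma adjusted p = 0.0350, the lowest of a range up to 0.720), and without oxidized A and B it was 0.33. Hoxc9, which represses limb-level identity in thoracic motor neurons, was at 1.38, 1.55 and 1.75 FPKM against 0.862, 0.996 and 1.35 FPKM. The gap between its groups was small (log2 difference 0.31, SE 0.17, limma adjusted p = 0.344). Hoxa9, also known for its role in blood progenitors, was at 2.05, 1.62 and 2.90 FPKM against 0.828, 1.62 and 1.88 FPKM, with population B level and the groups overlapping (log2 difference 0.39, SE 0.23, limma adjusted p = 0.377).

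Group 13 genes end the body axis and pattern the digits and the urogenital opening. Hoxa13 was at 4.38, 3.13 and 5.84 FPKM in the oxidized libraries of A, B and C and at 1.505, 1.48 and 3.36 FPKM in the reduced libraries of A, B and C. Oxidized was higher in each population, but oxidized B lay under reduced C, so the groups overlapped (log2 difference 0.83, SE 0.27, limma adjusted p = 0.162). Hoxd13 was at 3.84, 2.87 and 4.04 FPKM against 2.01, 1.89 and 3.94 FPKM, and its pair in population C was level (log2 difference 0.38, SE 0.24, limma adjusted p = 0.408). The other 2 of the group, Hoxb13 and Hoxc13, reached at most 0.421 FPKM, in reduced C for Hoxc13. Over the 10 tested posterior genes the median log2 difference was 0.59, with 7 at an unadjusted p under 0.05 (13.5% of all tested genes in that direction) and 6 without overlap and higher in oxidized cells (16.2% of all tested genes). Both counts include Hoxc10, which passed the 1 FPKM limit only through its oxidized libraries.

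**Figure D2:**
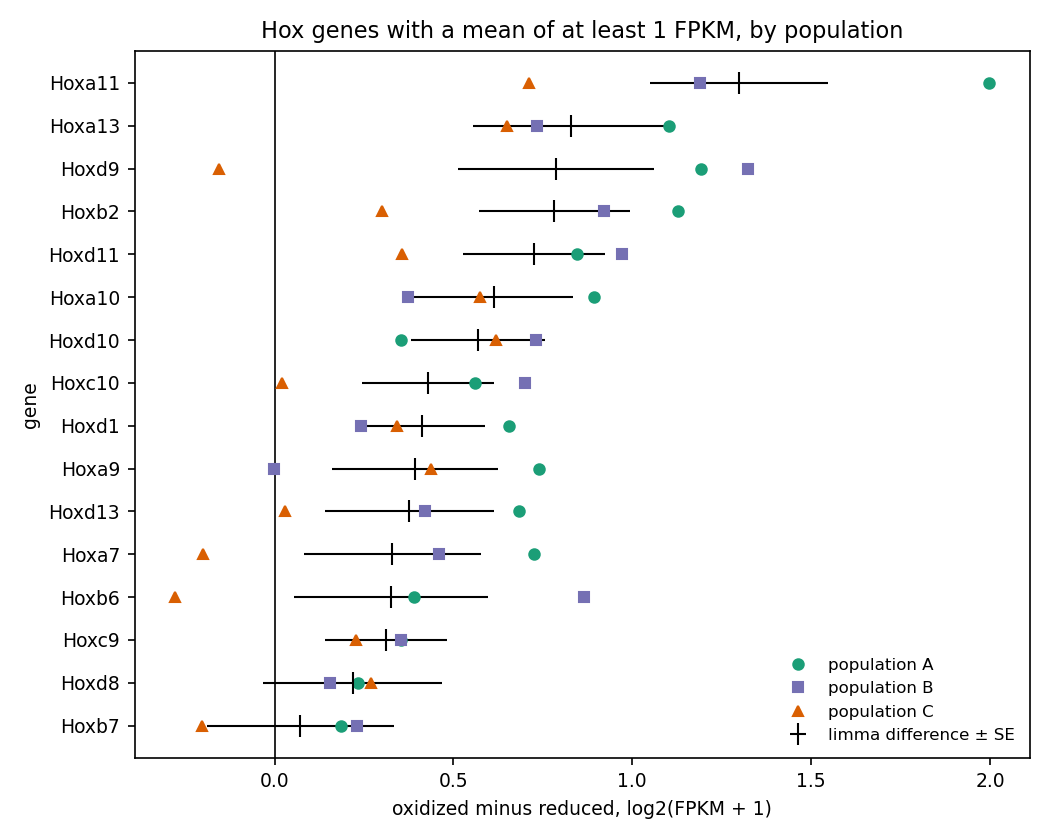
Log2 difference of 16 tested Hox genes, oxidized minus reduced in log2(FPKM + 1), within populations A (circles), B (squares) and C (triangles); black bars are the limma difference ± SE. Population C gives the lowest of the 3 values for most genes and is below 0 for Hoxd9, Hoxa7, Hoxb6 and Hoxb7.

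The central genes, which act from the neck to the thorax, showed smaller differences. Hoxa7 was at 2.13, 1.498 and 1.85 FPKM in the oxidized libraries of A, B and C against 0.897, 0.816 and 2.27 FPKM in the reduced libraries of A, B and C. Hoxb6 was at 2.54, 1.97 and 0.985 FPKM against 1.70, 0.632 and 1.41 FPKM. In both genes population C had the opposite sign from A and B, and the log2 differences were 0.33 (SE 0.25) and 0.33 (SE 0.27), with limma adjusted p = 0.484 and 0.528. Hoxd8 was at 1.68, 1.56 and 3.15 FPKM against 1.28, 1.30 and 2.44 FPKM, where population rather than redox group separated the libraries (log2 difference 0.22, SE 0.25, limma adjusted p = 0.657). Hoxb7 had the smallest difference of the 17, 0.07 (SE 0.26, limma adjusted p = 0.902), from 1.43, 0.954 and 1.79 FPKM against 1.14, 0.665 and 2.21 FPKM. Of the 4 tested central genes, 0 had an unadjusted p under 0.05 in limma, 0 were without overlap, and only Hoxd8 was positive in population C. Whether central and posterior genes differ in their response was not tested.

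Of the anterior genes, Hoxb2, which patterns the hindbrain and is a target of the segmental factor Egr2, was at 3.25, 2.38 and 1.58 FPKM in the oxidized libraries of A, B and C against 0.947, 0.786 and 1.10 FPKM in the reduced libraries of A, B and C. Its groups did not overlap, and the gap narrowed from 3.44-fold in A and 3.03-fold in B to 1.44-fold in C (log2 difference 0.78, SE 0.21, limma adjusted p = 0.117). Without oxidized C the limma adjusted p of Hoxb2 was 0.0168, the lowest of a range up to 0.482, and without oxidized A and B the difference was 0.41. Hoxd1, known from pain-sensing neurons, was the most abundant anterior gene, at 6.34, 4.37 and 5.65 FPKM against 3.66, 3.54 and 4.25 FPKM. The ranges of Hoxd1 nearly met, with oxidized B just above reduced C (log2 difference 0.41, SE 0.18, limma adjusted p = 0.245).

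Of the 22 members under the 1 FPKM limit, 15 had the higher mean in oxidized and 7 in reduced cells, where 53.7% of all such genes with a value had the higher mean in oxidized cells. In 3 of the 22, Hoxa5, Hoxb5 and Hoxb9, every oxidized library was above every reduced one (5.8% of all genes under the limit), and in 0 was the reverse seen. Hoxa5, needed for the neck vertebrae and lung, was at 1.21, 1.36 and 0.797 FPKM in the oxidized libraries of A, B and C and 0.459, 0.643 and 0.170 FPKM in the reduced libraries of A, B and C. Hoxb5 was at 0.661, 0.620 and 0.554 FPKM against 0.209, 0.301 and 0.209 FPKM. Hoxb9 was at 1.38, 1.25 and 1.07 FPKM against 0.770, 0.511 and 0.476 FPKM. These 3 kept a gap of at least 1.79-fold in each population, C included. Hoxa2, which sets the identity of the second branchial arch, was at 1.39, 2.14 and 0.358 FPKM against 0.146, 0.475 and 0.331 FPKM, so its high values came from the oxidized cells of A and B alone. Hoxb1, an early anterior gene, was at 0.349, 0.751 and 0.201 FPKM in oxidized and 0.761, 0.746 and 0.169 FPKM in reduced libraries, low in both libraries of population C. The most weakly detected member, Hoxa6, had at most 0.112 FPKM, an estimated 1 fragment. Hoxc8, a thoracic gene, was at 0.906, 0.446 and 1.15 FPKM against 0.331, 0.550 and 1.11 FPKM, and Hoxc12 ranged from 0.0843 to 0.905 FPKM, both with overlap. The anterior genes Hoxa3, Hoxb3 and Hoxd3 were at most 0.654 FPKM (Hoxd3 in oxidized B), the central genes Hoxa4, Hoxb4, Hoxb8, Hoxc4, Hoxc5, Hoxc6 and Hoxd4 at most 0.576 FPKM (Hoxc6 in oxidized B), and the posterior gene Hoxd12 at most 0.229 FPKM, all with overlap. The 22 were left out of the test by the filter on low values, and 1 fragment on a transcript of 2 kb is worth 0.0277 to 0.042 FPKM at these depths.

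Summed by cluster, Hoxa and Hoxd carried most of the Hox transcript level. The Hoxa sum was 29.7, 25.9 and 29.4 FPKM in the oxidized libraries of A, B and C and 10.6, 13.9 and 20.04 FPKM in the reduced libraries of A, B and C. Hoxd summed to 26.6, 23.8 and 25.0 FPKM against 13.7, 12.1 and 21.0 FPKM. In both clusters the oxidized libraries lay close together and above all reduced ones, of which C was the highest. The Hoxb sum was 9.88, 8.48 and 6.94 FPKM against 5.87, 4.13 and 6.03 FPKM, also without overlap. Hoxc had the lowest sum, 5.00, 6.31 and 5.28 FPKM against 2.79, 2.91 and 5.59 FPKM, and its groups overlapped through reduced C. The ratio of group means was 1.91 for Hoxa, 1.58 for Hoxb, 1.47 for Hoxc and 1.61 for Hoxd, and within population C it was 1.47, 1.15, 0.945 and 1.19.

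**Figure D3:**
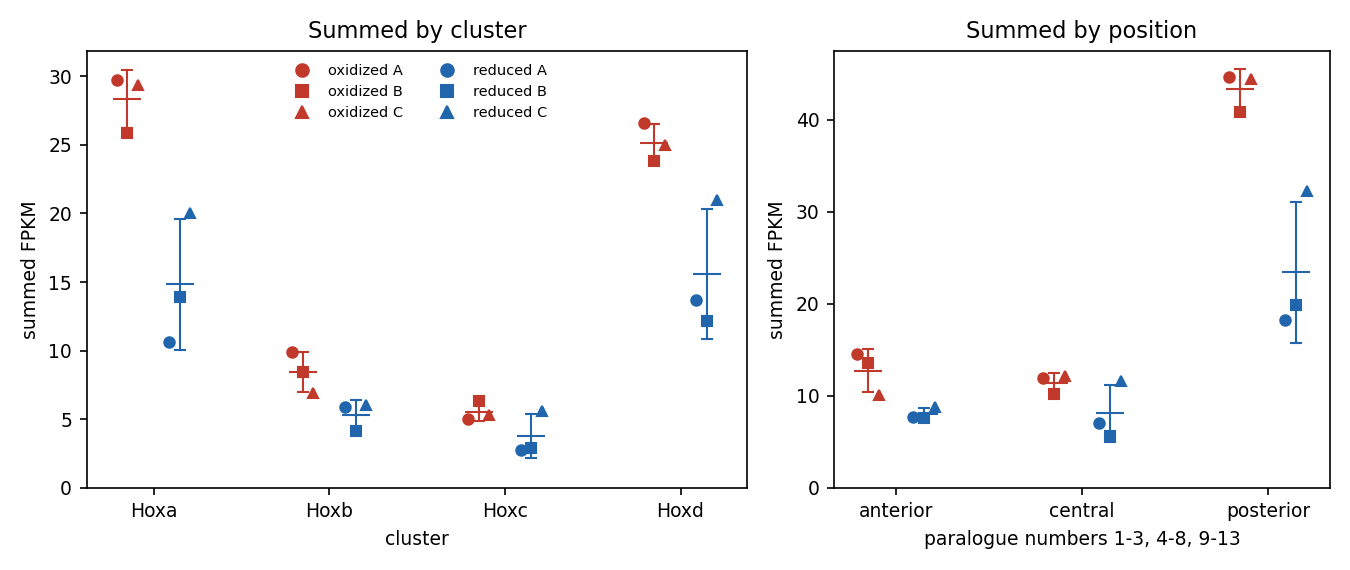
Summed FPKM of each Hox cluster (left) and of anterior, central and posterior Hox genes (right). Red marks oxidized and blue reduced libraries, circles, squares and triangles are populations A, B and C, and horizontal bars with whiskers are the mean ± SD of 3 libraries. The groups are separate for Hoxa, Hoxb, Hoxd, anterior and posterior sums, and reduced C is the highest reduced library in every sum.

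By position, the 16 posterior genes summed to 44.7, 40.8 and 44.4 FPKM in the oxidized libraries of A, B and C and to 18.2, 19.8 and 32.2 FPKM in the reduced libraries of A, B and C. They made up between 55.3% (reduced A) and 66.7% (oxidized C) of the Hox level in a library. The 8 anterior genes summed to 14.6, 13.5 and 10.1 FPKM against 7.69, 7.60 and 8.83 FPKM. Oxidized C therefore matched oxidized A and B in its posterior sum and lay below them in its anterior sum. For the 15 central genes the sums were 11.9, 10.2 and 12.1 FPKM against 7.03, 5.64 and 11.6 FPKM, and both libraries of population C were alike.

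Grouped by paralogue number across clusters, the 4 genes of group 9, the 3 of group 10 and the 3 of group 11 each summed to more in every oxidized library than in any reduced one. Group 11 was at 11.2, 10.8 and 9.46 FPKM against 2.42, 3.71 and 5.54 FPKM, a ratio of means of 2.70. Group 10 was at 11.6, 10.6 and 13.98 FPKM against 6.28, 6.34 and 8.92 FPKM, and group 9 at 13.4, 12.2 and 10.4 FPKM against 5.65, 5.64 and 9.03 FPKM, with ratios of 1.68 and 1.77. Groups 1, 2 and 5 were also without overlap. Group 2, made of Hoxa2 and Hoxb2, had the highest ratio of all 13 groups, 2.93, from 4.64, 4.52 and 1.94 FPKM against 1.09, 1.26 and 1.43 FPKM, and its gap was wide in populations A and B and narrow in C. Group 5 had a more even one, 2.68 in A, 2.36 in B and 2.09 in C. Groups 3, 4, 6, 7, 8, 12 and 13 overlapped.

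**Figure D4:**
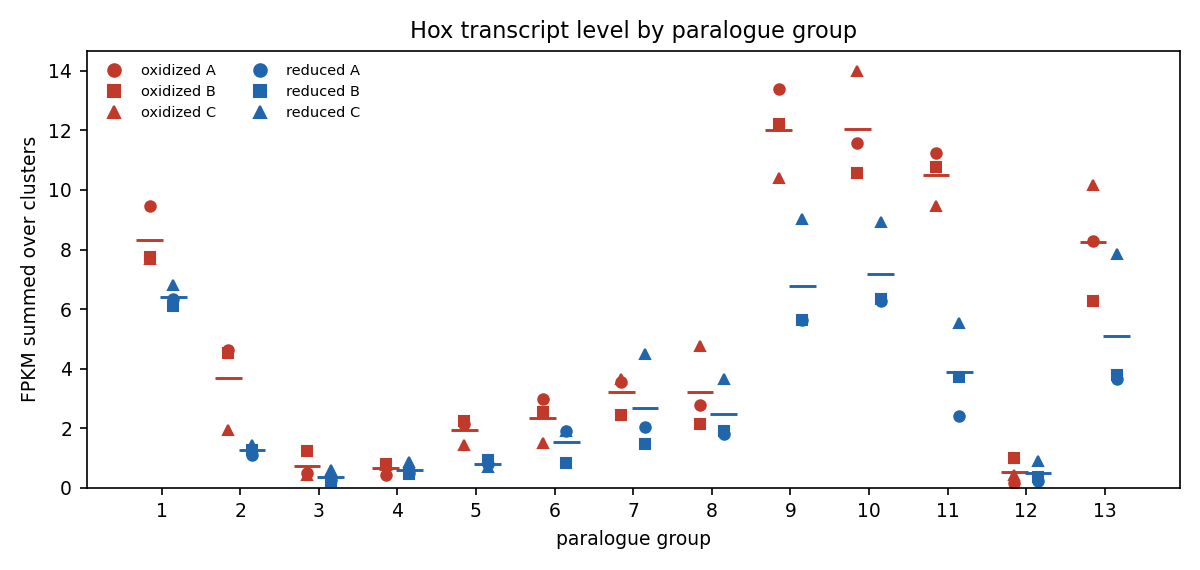
FPKM summed over the clusters for each of the 13 paralogue groups. Red marks oxidized and blue reduced libraries, circles, squares and triangles are populations A, B and C, and short bars are group means. Groups 1, 9, 10, 11 and 13 hold the highest mean sums, and groups 3, 4 and 12 reach at most 1.23 FPKM in any library.

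The populations differed in how far the Hox genes separated the redox groups. Of the 17 tested genes, 17 were higher in the oxidized library of population A, 16 in B and 12 in C. The median log2 difference was 0.68 in A, 0.46 in B and 0.27 in C, beside medians of 0.09, 0.14 and 0.00 over all tested genes. In 11 of the 17 the difference was positive in each population (26.9% of all tested genes). Both C libraries bear on the calls: without oxidized C limma called 3 Hox genes, Hoxa11, Hoxb2 and Hoxd9, beside 9.72% of all tested genes (7.25% higher in oxidized cells), and without reduced C it called Hoxa11 alone, beside 0.525% (0.361% higher in oxidized cells). With no filter on low genes it called 0 Hox genes, beside 0.00355% of 28179 genes. The libraries of population C were the shallowest and held the highest blood marker sums (given above). Oxidized A and B stood apart from the other libraries in mt-Co3, Mif and CT010467 (given above). They are the only oxidized libraries left in the fit without oxidized C. The part of any of these features in the Hox values was not tested.

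Non-coding transcripts inside the clusters were read with the Hox genes they overlap. Hoxa11os, transcribed from the strand opposite Hoxa11 (chr6:52244393-52249799) and covering 35.0% of its exonic bases, was at 3.07, 2.74 and 2.26 FPKM in the oxidized libraries of A, B and C and 0.518, 0.993 and 1.94 FPKM in the reduced libraries of A, B and C. Its order of libraries was the one seen for Hoxa11, and without strand information reads from the bases the pair shares cannot be told apart (log2 difference 0.83, SE 0.25, limma adjusted p = 0.141). Hoxaas3, antisense to Hoxa3 and Hoxa7, was at 1.46, 1.33 and 0.930 FPKM against 0.0973, 0.486 and 0.119 FPKM and is marked significant in the authors' deposited table (q = 0.0139). Its mean of 0.737 FPKM was under the limit for testing, and in the limma fit without a filter its adjusted p was 0.236. Hoxaas3 covers 20.4% of the exonic bases of Hoxa7, and reads from those bases cannot be told apart either. Hotairm1, at the anterior end of the Hoxa cluster and known to follow retinoic acid, was at 1.92, 1.93 and 1.77 FPKM against 1.24, 0.720 and 1.68 FPKM, narrowly without overlap (limma adjusted p = 0.302). The partner of Hoxb2, Hoxb3os, was at most 0.313 FPKM, below Hoxb2 in every library. Of 33 non-Hox genes of the table inside the clusters 7 were tested and limma called 0. At an unadjusted p under 0.05 limma gave 4, all higher in oxidized cells, beside 13.5% of all tested genes in that direction. Of the 4, Gm27477 and Gm27492 passed the 1 FPKM limit only through oxidized libraries, with reduced means of 0.0957 and 0.0676 FPKM. Another of the 4 was Hoxa11os, which shares bases with Hoxa11. The most abundant of the 7, Gm27695, a short RNA annotation of the Hoxa cluster, ranged from 0.0945 to 6.45 FPKM with both extremes in population A.

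Outside the clusters, positive and negative differences were about as frequent. Within 250 kb of the outermost Hox genes, 19 of 40 table genes were tested, 10 had a positive difference and the median was 0.00. Limma called 1, Calcoco2, an autophagy receptor gene 82.4 kb from Hoxb13, which was lower in oxidized cells, with 6.52, 7.01 and 6.47 FPKM against 16.2, 18.1 and 16.9 FPKM (log2 difference -1.24, SE 0.14, limma adjusted p = 0.0158, or 0.0613 with the population block). Evx1, a homeobox gene of the late streak 52.6 kb beyond Hoxa13, was at 11.1, 14.5 and 10.6 FPKM against 14.1, 11.8 and 14.2 FPKM, with overlap. Hnrnpa1, a splicing factor gene near Hoxc and the most abundant neighbour, was level as well, at 325, 308 and 245 FPKM against 279, 322 and 263 FPKM. Halr1, a long non-coding RNA 41.9 kb beyond the anterior end of the Hoxa cluster that was singled out after its values were seen, was at 0.454, 0.293 and 0.329 FPKM against 1.53, 1.83 and 0.888 FPKM. Every oxidized library of Halr1 was below every reduced one, and the gene was too low to be tested. The opposite separation was seen for Hoxa5, Hoxa10 and Hoxa11, and the groups of the other Hoxa genes described here overlapped.

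**Figure D5:**
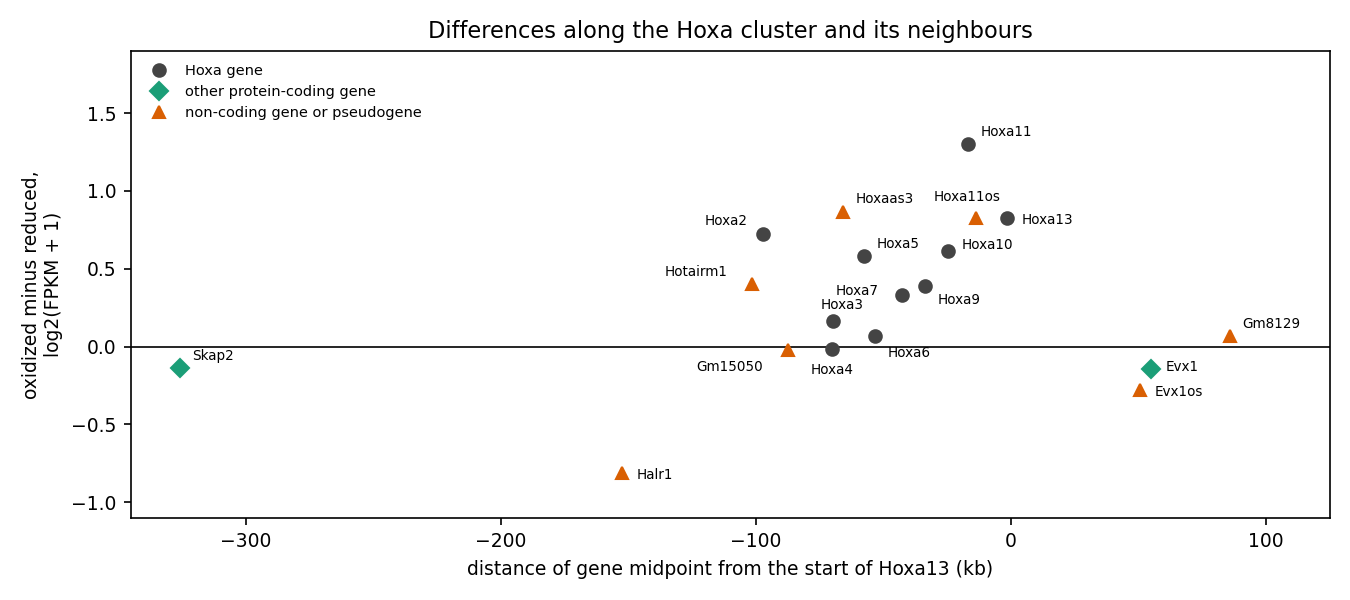
Log2 difference, oxidized minus reduced in log2(FPKM + 1), of Hoxa genes (black circles) and of neighbouring genes that averaged 0.5 FPKM or more, leaving out short RNA annotations (diamonds are protein-coding, triangles non-coding genes or pseudogenes), by distance of the gene's midpoint from the start of Hoxa13. The values come from the fit without a filter on low genes; Hoxa11 is the highest at 1.30 and Halr1 the lowest at -0.81.

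Of the genes that control or assist Hox genes, the most calls in a list, 2, were in the retinoic acid route. In that list of 19 genes 13 were tested and limma called 2, both higher in oxidized cells: the retinoic acid carriers Crabp1 (adjusted p = 0.0167) and Crabp2 (adjusted p = 0.0186). Over all tested genes limma called 0.517% in that direction, and the lists differ in size. Crabp2 was at 79.1, 86.9 and 57.5 FPKM in the oxidized libraries of A, B and C and 20.1, 23.9 and 26.8 FPKM in the reduced libraries of A, B and C, and both genes had an adjusted p of 0.0613 with the population block. The list's median log2 difference was 0.32. Cyp26a1, which degrades retinoic acid, was at 22.8, 26.1 and 15.6 FPKM against 17.6, 20.1 and 12.2 FPKM, higher by a similar step in each population but with overlap (limma adjusted p = 0.450). Among the Cdx genes, Cdx2 was at 27.9, 23.7 and 29.1 FPKM against 23.4, 14.7 and 28.1 FPKM and Cdx4 at 3.08, 1.74 and 2.55 FPKM against 3.26, 2.42 and 3.18 FPKM, both with overlap (limma adjusted p = 0.471 and 0.590). Cdx1 was under the limit, at 0.289, 0.807 and 0.121 FPKM against 1.44, 0.897 and 1.23 FPKM, with every oxidized library below every reduced one.

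The posterior Wnt and FGF signals and T were of mixed sign, with 2 positive and 6 negative differences. Of 8 tested genes in that list of 11, limma called 1, T, the streak and tail bud factor, which was lower in oxidized cells at 5.59, 4.47 and 3.47 FPKM against 15.0, 14.6 and 14.5 FPKM (adjusted p = 0.0158, or 0.0601 with the block), and the list's median was -0.34. Fgf8, the most abundant, was at 34.6, 34.3 and 28.1 FPKM against 59.3, 53.8 and 46.5 FPKM without overlap (limma adjusted p = 0.0947). The 2 positive genes, singled out after their values were seen, were Nkx1-2, at 6.20, 6.76 and 4.96 FPKM against 3.79, 2.37 and 4.36 FPKM (limma adjusted p = 0.159), and the Wnt ligand Wnt5a, at 10.3, 9.65 and 9.06 FPKM against 7.35, 7.25 and 8.30 FPKM (limma adjusted p = 0.299). Both had every oxidized library above every reduced one.

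Among the 9 TALE cofactors, all tested, 8 had a positive difference, 5 were higher at an unadjusted p under 0.05, and limma called 1, Meis1. Over all tested genes the shares were 59.3%, 13.5% and 0.517%. Meis1 and Meis2, both among the 8 and the 5, passed the 1 FPKM limit only through their oxidized libraries. Their reduced means were 0.604 and 0.920 FPKM, so their direction is partly set by that limit. Meis1 was at 2.27, 1.98 and 2.40 FPKM in the oxidized libraries of A, B and C and 0.471, 0.568 and 0.774 FPKM in the reduced libraries of A, B and C (log2 difference 1.01, SE 0.16, limma adjusted p = 0.0382, or 0.0873 with the block). The gap of Meis1 was present in each population, C included. Meis2 was at 2.83, 3.17 and 2.11 FPKM against 0.877, 0.794 and 1.09 FPKM (limma adjusted p = 0.0599), also without overlap. Pbx2, the most abundant of the list, was at 5.51, 7.01 and 6.92 FPKM against 5.10, 3.995 and 5.50 FPKM. Its groups were narrowly separate (limma adjusted p = 0.304). Of 4 tested further cofactors and antagonists limma called 0, with 3 at an unadjusted p under 0.05, and the most abundant, Gmnn, overlapped at 56.5 to 83.4 FPKM over the 6 libraries.

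The chromatin regulators of the clusters had medians near 0. Of 30 tested Polycomb subunits limma called 0, with 5 higher and 3 lower at an unadjusted p under 0.05 and a median log2 difference of 0.02. Rbbp7, the most abundant, was at 259, 198 and 265 FPKM against 285, 270 and 314 FPKM. Of 15 tested Trithorax, MLL and K27 demethylase genes limma called 0, with 1 higher and 1 lower at an unadjusted p under 0.05 and a median of 0.00, and Dpy30, the most abundant, was at 86.5, 72.9 and 45.2 FPKM against 44.2, 54.2 and 55.4 FPKM. Of the 8 ParaHox and flanking homeobox genes 3 were tested (Cdx2, Cdx4 and Evx1), limma called 0 and none had an unadjusted p under 0.05.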

How the data were processed

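Poly(A) RNA of 3 oxidized and 3 reduced sorts was sequenced. Per the file headers, the authors' table holds FPKM values for 31265 genes in each library. StringTie, HISAT2, cutadapt, FastQC, edgeR and mm10 are listed, unversioned, in the submitters' processing notes. The treatment of reads matching several genes, and strand use, were not given in the sources used here. Tested on the file, the deposited fold (ratio) column equals the ratio of the group mean FPKM within 0.1%, with a mean of 0 replaced by 1e-04, the deposited log2 column is its log2, and the deposited q-value and p-value are from a test by the authors. The table's columns carry the population letters A, B and C, and the sample titles carry replicate numbers, so a column is tied to its group and population only.

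FPKM are not counts. Low values fell on whole fragment steps, within 0.05, for only 29.8% to 35.8% of genes, so reads were not recovered, and depth and fragments are estimates from step size and mean transcript length. FPKM plus a pseudocount of 1 were log2-transformed, genes averaging 1 FPKM or more were kept (12191), and limma 3.58.1 (R 4.3.3) was fitted with group as the single term (eBayes with trend, two-sided, Benjamini-Hochberg over all tested genes, threshold 0.05). Differences on this scale understate changes of low genes. The script was tested on simulated data. By the series' design text both groups were sorted from each population, which pairs the libraries by letter, and a block for the population was tried as an alternative. Deviations from group means correlated at r = -0.056, 0.070 and 0.199 within A, B and C. Between oxidized and reduced libraries of different letters r was -0.17 to 0.132, so only the pair of C lay above every unmatched pair. Other alternatives were median-ratio and quantile scaling, a pseudocount of 0.1, no filter, a limit of 5 FPKM, no trend, a 2-fold minimum and leaving out each library; leaving out oxidized A and B together, and scaling with the block, were chosen after seeing the data. Positions, overlaps and homeoboxes come from GENCODE vM21 (GRCm38, the build of mm10), which matched 31182 of the genes, and upstream windows from RefSeq.

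Hox genes averaging 1 FPKM or more are given in full and the others by values or ranges; of the regulator lists and neighbours, the called and the most abundant genes and T, Crabp1, Cdx1, Cdx2, Cdx4, Cyp26a1, Meis1 and Meis2 are named. A few genes covered by this rule are not reported here. Antisense partners, Hoxb3os, Evx1 and Hotairm1 were added for their position or role. The members and lists were chosen with earlier results of these data known. Sums over members carry no test.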

Additional observations from a re-analysis of the deposited data

How the results depend on the processing

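Over all genes, the 97 called became 4 with the population as a replicate block, 1 of 28179 without a filter, 4 without oxidized A and B, and 53 with median-ratio scaling and the block together; other settings gave 69 to 108. Leaving out 1 library gave 3 to 1185 (oxidized A 3, B 4, C 1185; reduced A 4, B 3, C 64). The count of Hox genes called, 0, ranged from 0 to 3 when 1 library was left out: 3 without oxidized C and 1 without reduced C. It was 0 under every other setting tried, the block included. For 16 tested Hox genes, 219 of 227 alternative values kept their direction and their side of the threshold, 4 passed the threshold and 4 changed sign: Hoxb6 (-0.15) without oxidized A and B, Hoxb7 (-0.05) and Hoxd8 (-0.0025) without oxidized C, and Hoxb7 (-0.15) without reduced B, where leaving out 1 library gave -0.15 to 0.33 for Hoxb7 and -0.0025 to 0.41 for Hoxd8; the cause was not tested. The adjusted p of Hoxa11 ranged from 0.0162 to 0.243. The log2 ratios of the cluster sums kept their sign under each setting tried. With oxidized A and B left out, the lone oxidized library is assumed to vary like the others. The precision of the 18 Hox genes under 0.5 FPKM is limited by an estimated 0 to 25 fragments per library.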
